A study of Rattus norvegicus with 8 samples.

Results

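The potassium channel genes were taken as every probe set of the array whose single platform gene symbol begins with Kcn, which gave 83 genes on 85 probe sets out of 14506 genes and 29214 probe sets. Kcnip1 and Kcnip2 had 2 probe sets each, which were averaged. All tissue came from adult male Wistar rats with a transected L5 spinal nerve, and dorsal lumbar cord from the injured side was dissected at day 14. The HDACi group (n = 4) received the class I selective inhibitor MS-275 at 30 nmol/d into the intrathecal space from an osmotic pump, begun before the injury. The vehicle group (n = 4) carried the same catheter, pump and injury and received DMSO in saline. Both groups were therefore injured, and no uninjured cord was measured on these arrays.

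Potassium channels let potassium ions leave the cell and so hold the resting potential, repolarize the action potential and set how often a neuron can fire. The family falls into voltage-gated channels (Kv), inward rectifiers (Kir, Kcnj genes), 2-pore leak channels (Kcnk genes) and channels opened by calcium or sodium (Kcnm, Kcnn and Kcnt genes), with accessory subunits that alter gating or transport to the membrane. In the dorsal horn, A-type Kv currents delay firing, Kir channels coupled to G proteins carry part of the inhibition by opioids, and glial Kir channels take up potassium released by active neurons.

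The signals are RMA values on the log2 scale, and every difference below is HDACi minus vehicle on that scale. With quantile-normalized arrays, a difference is relative to the other transcripts on the chip. Probe sets differ in how well they bind, so signals of different genes are not ranked by abundance. Array medians lay between 7.95 and 7.98, and arrays correlated at 0.992 to 0.998 across genes. Of the 83 genes, 74 had a mean signal above 6.93, the 95th percentile of 1105 olfactory receptor genes, which the cord is not known to use. The other 9 are not shown to lie above background. Markers of neurons, dorsal horn, astrocytes, oligodendrocytes, microglia, mural cells and endothelium were above this level throughout, and of the sensory ganglion list Scn10a and Scn11a were not.

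After Benjamini-Hochberg adjustment in limma no potassium channel gene was called, with a smallest adjusted p of 0.61, and neither was any other of the 14506 genes (1124 had an unadjusted p under 0.05). Only genes with a single platform symbol were tested here, averaged over their probe sets. The paper, which did not restrict its test in this way, reported that 1 cord transcript, a mitochondrial cysteine transfer RNA, passed its multiple-testing correction. At an unadjusted p under 0.05, 11 of the 83 were called (13.3%, against 7.75% of all genes). Of these, 7 were lower with HDACi (8.43%, against 4.96% of all genes) and 4 were higher (4.82%, against 2.79% of all genes). At an unadjusted p under 0.01, 1 was lower and none higher, against 0.855% of all genes lower and 1.46% either way. These counts moved with single arrays: without HDACi replicate 4 they were 4 lower and 2 higher, and without vehicle replicate 3 only 1 was higher. The groups did not overlap for 9 genes (10.8%, against 5.02% of all genes). HDACi values lay wholly below vehicle values for 5 (3.60% of all genes) and wholly above for 4 (1.42% of all genes). The differences were small. Of the 83 genes, 73 differed by less than 10 percent, and the extremes over all arrays were -0.26 (Kcnj14) and 0.16 (Kcnd3). The median difference was -0.01 with 48 genes below 0, and the median over all genes was also -0.01 with 57.9% below 0. As a family they thus had the same median as the chip as a whole. In a bulk tissue, fewer cells of a type and less RNA per cell cannot be told apart.

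**Figure D1:**
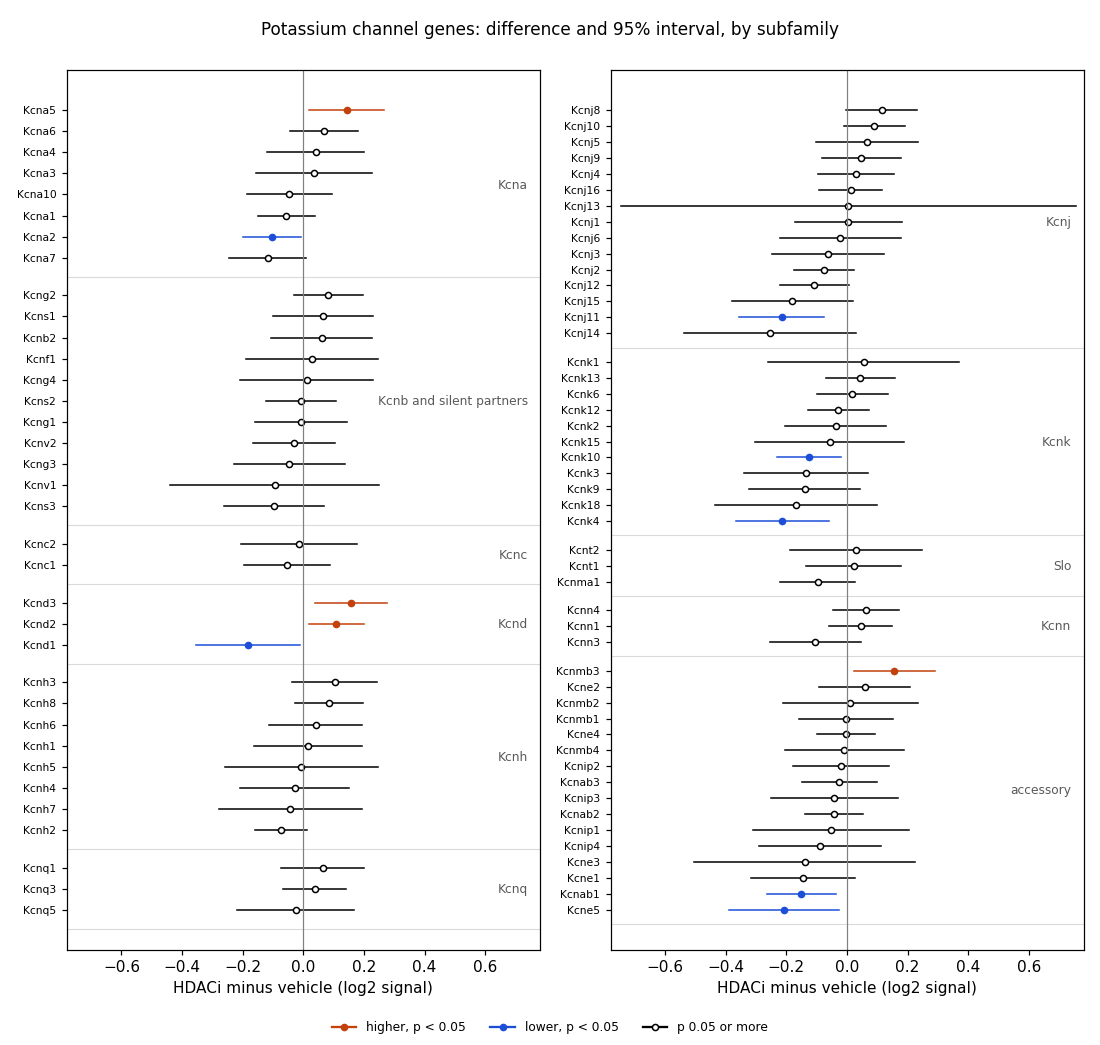
Difference in log2 signal, HDACi minus vehicle, for each of the 83 genes with its 95% confidence interval from limma, by subfamily (n = 4 arrays per group); filled points have an unadjusted p under 0.05. The 3 Kcnd genes are all filled, with Kcnd3 and Kcnd2 to the right of 0 and Kcnd1 to the left, and most other intervals cross 0.

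**Figure D2:**
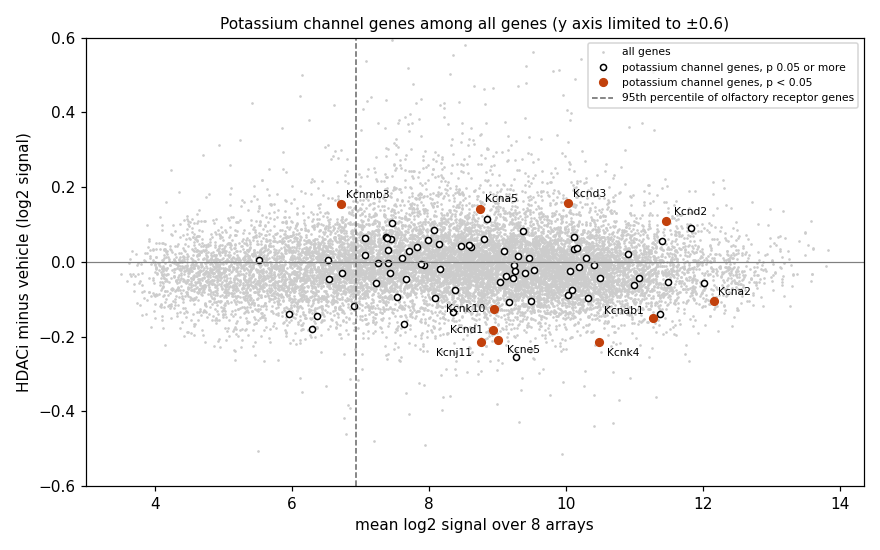
Mean log2 signal over 8 arrays (x axis) and HDACi minus vehicle difference in log2 signal (y axis) for all genes in grey and potassium channel genes as circles, with the 95th percentile of olfactory receptor genes (6.93) as a dashed line. The 11 genes with an unadjusted p under 0.05 are named and lie within 0.22 of 0, and only Kcnmb3 among them lies left of the line; 30 genes beyond 0.6 are not drawn.

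The Kcnd genes encode the Kv4 channels, which carry the fast A-type current of dendrites and cell bodies. All 3 measured members were called, in opposite directions, where 7.75% of all genes were called. With 3 genes this is a description only. Kcnd3 (Kv4.3) read 10.17, 9.99, 10.08 and 10.21 on the HDACi arrays and 9.92, 9.96, 9.97 and 9.98 on the vehicle arrays. All HDACi values exceeded all vehicle values, and the vehicle values were tightly grouped. The difference was 0.16 (standard error 0.05, 95% confidence interval 0.04 to 0.28; unadjusted p = 0.0145 and adjusted p = 0.61 from limma), a ratio of 1.12. Kcnd2 (Kv4.2), the main A-type channel of dorsal horn neurons in the mouse, read 11.53, 11.47, 11.51 and 11.58 with HDACi and 11.40, 11.40, 11.40 and 11.45 with vehicle. Its groups did not overlap either, and the difference was 0.11 (standard error 0.04; unadjusted p = 0.0234 from limma). For both, the exact two-sided permutation p was 0.0286, the smallest that 4 against 4 allow. Kcnd1 (Kv4.1) read 8.84, 8.77, 8.93 and 8.82 with HDACi and 9.08, 9.22, 8.90 and 8.89 with vehicle. Here the groups overlapped, and only vehicle replicates 1 and 2 stood above all HDACi arrays. The difference was -0.18 (standard error 0.08; unadjusted p = 0.0395 from limma, exact permutation p = 0.0857). The Kcnd3 call held when any array was left out. The Kcnd2 call was lost without HDACi replicate 4 or vehicle replicate 1 or 3 (unadjusted p up to 0.0723), with replicate numbers as a block (0.0533) and with arrays centred on their medians (0.0556). The Kcnd1 call was lost without HDACi replicate 1, 2 or 4 or vehicle replicate 1 or 2 (up to 0.0961, with a difference of -0.12 without vehicle replicate 2), with the block (0.0610) and without moderation of the variances (0.0761).

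Kv4 channels work with calcium-binding KChIP subunits (Kcnip genes) and with the dipeptidyl peptidase-like proteins Dpp6 and Dpp10, which bring them to the surface and speed their gating. None of these partners was called. Kcnip1 to Kcnip4 had differences between -0.09 and -0.02. Kcnip3, which encodes DREAM, also a transcriptional repressor of prodynorphin, averaged 10.48 ± 0.11 with HDACi and 10.52 ± 0.19 with vehicle (SD, n = 4 each). Both probe sets of Kcnip1 (-0.08 and -0.03) and of Kcnip2 (-0.02 and -0.02) lay on the same side of 0. Dpp6 differed by -0.01 (95% confidence interval -0.15 to 0.12) and Dpp10 by -0.04 (-0.33 to 0.25).

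The proximal promoters of Kcnd2 and Kcnd3, chosen after their values were seen, are printed because these genes of 1 subfamily were higher together. Each runs from 250 bases before to 50 bases after the RefSeq start of the gene in GRCr8, 5′ to 3′ on the gene's strand, and capitals mark GGGCGG, the core of the GC box, on either strand (as CCGCCC where it lies on the other).
Kcnd2, chr4:50742235-50742534, plus strand: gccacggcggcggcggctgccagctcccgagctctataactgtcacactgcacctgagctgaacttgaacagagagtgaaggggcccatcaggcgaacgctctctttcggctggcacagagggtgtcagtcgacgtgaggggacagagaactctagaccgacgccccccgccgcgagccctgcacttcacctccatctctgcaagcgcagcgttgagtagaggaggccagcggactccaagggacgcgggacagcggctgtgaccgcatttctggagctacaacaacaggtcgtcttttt
Kcnd3, chr2:195626066-195626365, plus strand: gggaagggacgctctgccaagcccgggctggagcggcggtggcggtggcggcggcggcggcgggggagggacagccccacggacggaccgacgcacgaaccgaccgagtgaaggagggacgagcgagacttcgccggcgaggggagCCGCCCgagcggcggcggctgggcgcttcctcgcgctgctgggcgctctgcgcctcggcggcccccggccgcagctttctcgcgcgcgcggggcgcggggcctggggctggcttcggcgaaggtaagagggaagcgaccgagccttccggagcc
The Kcnd2 window held 23 CpG, 61.7% GC and no such box, and the Kcnd3 window 48 CpG, 77.7% GC and 1 box. Of 83 potassium channel genes, 58 had a RefSeq promoter entry, with 64 entries in all. GGGCGG stood in 50% of these entries and in 33.1% of 33469 promoters of the same length, and the median GC content was 60.5% and 51.7%. A match describes the letters only.

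Kcna genes encode the Kv1 channels, which sit beside the nodes of Ranvier and at axon initial segments and limit repetitive firing. Of 8 measured, 1 was lower (12.5%, against 4.96% of all genes), 1 was higher (12.5%, against 2.79%) and 6 did not pass the test. With 8 genes these shares are a description only. Kcna7 and Kcna10, with mean signals of 6.90 and 6.55, did not pass and are not shown to lie above background. Kcna2 (Kv1.2) read 12.12, 12.08, 12.19 and 12.04 with HDACi and 12.20, 12.20, 12.24 and 12.21 with vehicle. Its groups did not overlap, although HDACi replicate 3 came close to the vehicle arrays. The difference was -0.10 (standard error 0.04; unadjusted p = 0.0360 from limma). This call held without HDACi replicate 3 and was lost when any other array was left out (up to 0.106), with the block (0.0709), with arrays centred on their medians (0.0845) and after a further quantile normalization (0.119). Kcna1 (Kv1.1), the usual partner of Kcna2 in axonal channels, averaged 11.98 ± 0.03 with HDACi and 12.04 ± 0.06 with vehicle (SD, n = 4 each), a difference of -0.06 (95% confidence interval -0.15 to 0.04). Kcna5 (Kv1.5), known from vascular smooth muscle and microglia, read 8.83, 8.74, 8.77 and 8.97 with HDACi and 8.64, 8.68, 8.69 and 8.74 with vehicle. The lowest HDACi array lay just above the highest vehicle array, and the difference was 0.14 (standard error 0.06; unadjusted p = 0.0289 from limma). The Kcna5 call was lost without HDACi replicate 1 or 4 or vehicle replicate 1, 2 or 3 (up to 0.0769). Markers of mural cells shared the direction of its group means but not its order by array. All 6 had higher means with HDACi, and the list mean ran from 9.64 to 10.07 with HDACi and from 9.57 to 9.65 with vehicle, and HDACi replicate 2 was highest for the list and lowest of the HDACi arrays for Kcna5. Their part in the result was not tested.

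Kcnab1, the β subunit that binds Kv1 channels and gives them fast inactivation, was lower as well. It read 11.29, 11.11, 11.24 and 11.16 with HDACi and 11.31, 11.38, 11.31 and 11.41 with vehicle, with no overlap. The difference was -0.15 (standard error 0.05, 95% confidence interval -0.26 to -0.04; unadjusted p = 0.0143 and adjusted p = 0.61 from limma), and it kept an unadjusted p under 0.05 whichever array was left out. Kcnab2 differed by -0.04 and Kcnab3 by -0.03, and neither was called. All 6 genes of a general neuron list had lower means with HDACi. Its list means were 12.24 to 12.40 on HDACi arrays, lowest on replicate 2, and 12.38 to 12.47 on vehicle arrays. Of 11 dorsal horn markers, 7 had higher means with HDACi and 4 lower. Their list means were 10.04 to 10.39 with HDACi and 10.15 to 10.27 with vehicle. The part of either list in the Kcna2 and Kcnab1 values was not tested. The promoters of this channel and its β subunit are shown in the same window and with the same capitals, again chosen after their values were seen.
Kcna2, chr2:197393280-197393579, plus strand: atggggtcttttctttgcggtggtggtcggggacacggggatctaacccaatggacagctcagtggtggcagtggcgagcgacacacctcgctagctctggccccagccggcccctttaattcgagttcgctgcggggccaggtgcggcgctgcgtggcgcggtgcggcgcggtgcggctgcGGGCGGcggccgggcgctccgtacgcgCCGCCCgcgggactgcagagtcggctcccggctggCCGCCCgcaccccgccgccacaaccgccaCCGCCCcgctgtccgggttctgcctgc
Kcnab1, chr2:151614301-151614600, plus strand: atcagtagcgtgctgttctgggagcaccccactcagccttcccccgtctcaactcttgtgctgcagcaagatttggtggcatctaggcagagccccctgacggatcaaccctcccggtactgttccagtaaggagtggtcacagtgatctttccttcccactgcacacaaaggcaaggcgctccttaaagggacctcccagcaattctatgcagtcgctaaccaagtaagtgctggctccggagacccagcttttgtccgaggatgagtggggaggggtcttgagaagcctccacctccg
The Kcna2 window held 4 GC boxes and 40 CpG, and the Kcnab1 window 0 boxes and 9 CpG, so these genes, both lower with HDACi, did not share that feature.

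The 8 Kcna genes include a pair of clusters in the GRCr8 gene order, and neighbours did not share a call. Kcna2 (-0.10) lies between Kcna3 (0.04) and Kcna10 (-0.05), and Kcna1 (-0.06) lies between Kcna5 (0.14) and Kcna6 (0.07). Kcna10, with a mean signal of 6.55, is not shown to lie above background, so its lack of a call says little. In each cluster 1 of 3 genes was called, where 7.75% of all genes were.

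The remaining voltage-gated channels showed no call. The 11 genes of Kcnb2 and the silent Kcnf, Kcng, Kcns and Kcnv subunits, which modify Kv2 channels, lay between -0.10 (Kcns3) and 0.08 (Kcng2). Kcnc1 (Kv3.1), which allows fast-spiking neurons to fire at high rates, averaged 11.47 ± 0.12 with HDACi and 11.53 ± 0.06 with vehicle (SD, n = 4 each). Among 8 Kcnh genes, Kcnh2, the ERG channel, averaged 10.05 ± 0.03 with HDACi and 10.12 ± 0.02 with vehicle (SD, n = 4 each). These groups did not overlap, but the difference of -0.07 had an unadjusted p of 0.0790 in limma. Kcnh3 differed by 0.10 (unadjusted p = 0.129 from limma). The Kcnq genes encode the M-current channels, which brake sustained firing and are opened by retigabine. Kcnq3 averaged 10.19 ± 0.04 with HDACi and 10.15 ± 0.06 with vehicle (SD, n = 4 each), Kcnq5 differed by -0.03 (95% confidence interval -0.22 to 0.17), and Kcnq1, a cardiac and epithelial member, by 0.06.

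**Figure D3:**
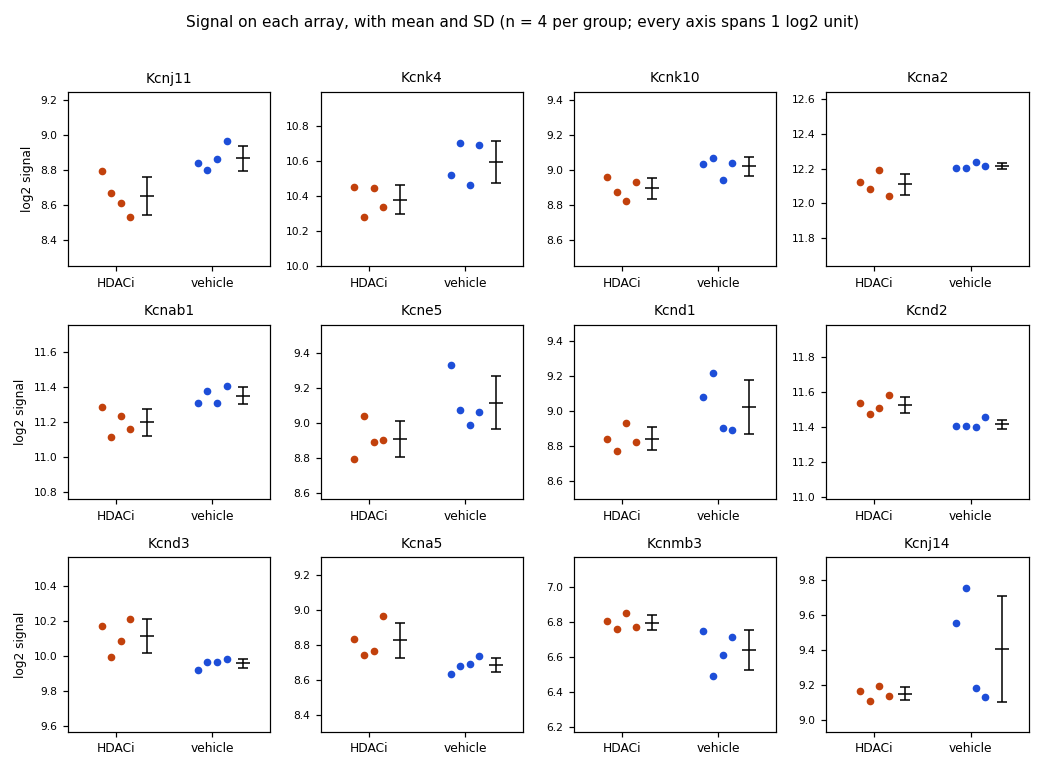
Log2 signal on each array for the 11 genes with an unadjusted p under 0.05 and for Kcnj14, HDACi left and vehicle right, with mean and SD (n = 4 per group). Every axis spans 1 log2 unit. HDACi and vehicle points do not overlap for Kcnj11, Kcnk4, Kcna2, Kcnab1, Kcnd2, Kcnd3, Kcna5 and Kcnmb3, and 2 vehicle points stand apart for Kcnd1 and Kcnj14.

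Of 15 inward rectifier genes, Kcnj11 alone was called (6.67%, against 7.75% of all genes). It encodes Kir6.2, the pore of the ATP-sensitive channel that couples membrane potential to cell metabolism. It read 8.79, 8.67, 8.61 and 8.53 with HDACi and 8.84, 8.80, 8.86 and 8.96 with vehicle. All vehicle arrays lay above all HDACi arrays, with HDACi replicate 1 nearest to them. The difference was -0.22 (standard error 0.06, 95% confidence interval -0.36 to -0.08; unadjusted p = 0.00679 and adjusted p = 0.61 from limma), a ratio of 0.861, and the exact permutation p was 0.0286. This was the smallest unadjusted p of the family and rank 144 among all genes. It stayed under 0.05 in all 19 alternatives, between 0.00149 and 0.0213.

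The sulfonylurea receptors that complete these channels were not called. Abcc8 (SUR1), the neighbour of Kcnj11 in the GRCr8 gene order and the partner of Kir6.2 in neurons, read 9.44, 9.24, 9.32 and 9.43 with HDACi and 9.35, 9.40, 9.38 and 9.31 with vehicle. Its groups overlapped fully, with a difference of 0.00 (95% confidence interval -0.12 to 0.12). Kcnj8 (Kir6.1), the pore typical of pericytes and smooth muscle, averaged 8.91 ± 0.06 with HDACi and 8.80 ± 0.08 with vehicle (SD, n = 4 each), and its difference of 0.11 was not called (unadjusted p = 0.0574 from limma). Abcc9 (SUR2), next to Kcnj8, differed by -0.09 (unadjusted p = 0.128 from limma). The differences of the pore genes had opposite signs, and that contrast was not tested.

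Glial and G protein-gated rectifiers were not called. Kcnj10 (Kir4.1), the main potassium channel of astrocytes and oligodendrocytes, read 11.84, 11.93, 11.86 and 11.86 with HDACi and 11.87, 11.76, 11.75 and 11.74 with vehicle. Vehicle replicate 1 lay among the HDACi arrays and the other 3 below them, for a difference of 0.09 (95% confidence interval -0.01 to 0.19; unadjusted p = 0.0749 from limma). Its glial partner Kcnj16 (Kir5.1) differed by 0.01 (-0.09 to 0.11). Of 7 astrocyte markers, 6 had higher means with HDACi, with a median difference of 0.05, and their part in the Kcnj10 value was not tested. Kcnj3 (GIRK1) averaged 10.96 ± 0.17 with HDACi and 11.03 ± 0.07 with vehicle, and Kcnj6 (GIRK2) 9.52 ± 0.14 and 9.54 ± 0.15 (SD, n = 4 each). Snx27, which sorts GIRK2 channels in endosomes, was lower, at 11.02, 10.97, 11.05 and 10.96 with HDACi and 11.17, 11.14, 11.06 and 11.17 with vehicle. These values did not overlap, and the difference was -0.14 (standard error 0.04; unadjusted p = 0.0121 and adjusted p = 0.61 from limma). Kcnj1, Kcnj13 and Kcnj15 had low signals, at mean values of 5.52, 6.53 and 6.30, and are not shown to lie above background. Kcnj13 differed by 0.00 (unadjusted p = 0.990 from limma), and by -0.39 without HDACi replicate 2 (unadjusted p = 0.00851 from limma).

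Kcnj14 (Kir2.4), described in cranial motor neurons of the rat, had the widest difference of the family, -0.26, without being called (standard error 0.13; unadjusted p = 0.0727 from limma). It read 9.16, 9.11, 9.19 and 9.14 with HDACi and 9.55, 9.76, 9.18 and 9.13 with vehicle. Vehicle replicates 1 and 2 stood apart, and the other vehicle arrays lay within the HDACi range. Without vehicle replicate 2 the difference was -0.14 (unadjusted p = 0.185 from limma), and without vehicle replicate 3 or 4 it was -0.33 or -0.35 and passed (0.0299 and 0.0175). With all arrays kept, it also passed narrowly after a further quantile normalization (unadjusted p = 0.0466 from limma) and with arrays centred on their medians (0.0475).

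The 2 vehicle arrays on which Kcnj14 and Kcnd1 were highest were also those with most motor neuron signal. The motor neuron list, of which 4 of 6 genes were measured and Isl1 was not above background, averaged 7.90, 8.35, 8.54 and 7.64 with HDACi and 9.09, 9.75, 8.09 and 8.48 with vehicle. All 4 genes had lower means with HDACi, with Slc18a3, the vesicular acetylcholine transporter, at 7.68 ± 0.65 with HDACi and 8.75 ± 1.16 with vehicle (SD, n = 4 each). Motor neurons lie in the ventral horn. With the list mean as a covariate, the Kcnj14 difference was -0.03 and that of Kcnd1 -0.05 (unadjusted p = 0.786 and 0.439 from limma). Under this covariate, an alternative added after the data were seen, Kcnj11 kept its call at -0.25 (unadjusted p = 0.0126 from limma) and the other 10 called genes no longer passed. The differences of Kcnab1 (-0.15), Kcnk10 (-0.11) and Kcna2 (-0.10) hardly moved (unadjusted p from limma 0.0551, 0.0963 and 0.124), while those of Kcnk4 (-0.16), Kcnd3 (0.11) and Kcna5 (0.09) were smaller (0.0882, 0.108 and 0.210). The partner genes Snx27 (-0.10) and Lrrc55 (0.22) lost their calls as well, with unadjusted p-values from limma of 0.0874 and 0.0952. The list mean itself differs between the groups, so the covariate takes up part of the difference between the groups. Motor neuron content and treatment therefore cannot be told apart here, and the part of these cells in the values was not tested. Vehicle replicates 1 and 2 also had more Schwann cell signal (11.51 and 11.69, 2 of 4 markers measured) than vehicle replicates 3 and 4 (9.66 and 10.27). Their leptomeningeal fibroblast signal was higher too (9.23 and 9.55, against 8.67 and 8.93). HDACi replicate 2 was highest on both lists (11.84 and 9.89) and read 9.11 for Kcnj14 and 8.77 for Kcnd1. The part of those cells was not tested either.

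**Figure D4:**
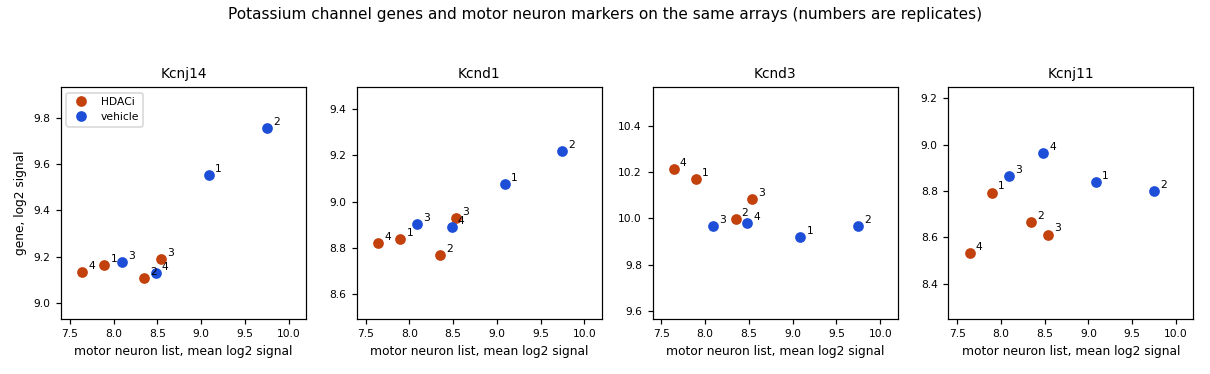
Log2 signal of Kcnj14, Kcnd1, Kcnd3 and Kcnj11 (y axes, each spanning 1 log2 unit) against the mean log2 signal of the measured motor neuron markers (x axis) on the 4 HDACi and 4 vehicle arrays, numbered by replicate. For Kcnj14 and Kcnd1, vehicle arrays 1 and 2 are highest on both axes, while for Kcnj11 all 4 vehicle points lie above all 4 HDACi points.

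Kcnk genes encode the 2-pore channels that carry the background leak. Of 11, a pair was lower (18.2%, against 4.96% of all genes), none was higher and 8 lay below 0 (72.7%, against 57.9% of all genes), with a median of -0.06. With so few genes, these shares are a description only. The called genes both belong to the TREK and TRAAK branch, channels opened by stretch, heat and polyunsaturated fatty acids and known from sensory neurons. Kcnk4 (TRAAK) read 10.45, 10.28, 10.44 and 10.34 with HDACi and 10.52, 10.70, 10.46 and 10.69 with vehicle. The groups did not overlap, with vehicle replicate 3 just above the highest HDACi array. The difference was -0.21 (standard error 0.07, 95% confidence interval -0.37 to -0.06; unadjusted p = 0.0114 and adjusted p = 0.61 from limma), a ratio of 0.862, and leaving out any array kept the call. Kcnk10 (TREK-2) read 8.96, 8.87, 8.82 and 8.93 with HDACi and 9.03, 9.07, 8.95 and 9.04 with vehicle. Only HDACi replicate 1 and vehicle replicate 3 overlapped. The difference was -0.13 (standard error 0.05; unadjusted p = 0.0242 from limma), and the call was lost without HDACi replicate 2 or 3 or vehicle replicate 1 or 2 (up to 0.0723). Kcnk2 (TREK-1), the third member of this branch, differed by -0.04 (95% confidence interval -0.20 to 0.13). Kcnk1 (TWIK-1), a leak channel of astrocytes, ranged from 11.17 to 11.60 with HDACi and from 11.14 to 11.71 with vehicle. Kcnk18 (TRESK), a sensory ganglion channel linked to migraine, averaged 7.56 ± 0.14 with HDACi and 7.73 ± 0.25 with vehicle (SD, n = 4 each; unadjusted p = 0.189 from limma).

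Among calcium- and sodium-activated channels, none of the 3 Kcnm and Kcnt pore genes and 3 Kcnn genes measured was called. Kcnma1 (BK), which shortens the spike when calcium enters, averaged 10.28 ± 0.10 with HDACi and 10.38 ± 0.04 with vehicle (SD, n = 4 each), a difference of -0.10 (unadjusted p = 0.111 from limma). Of the BK accessory genes, 1 of 4 β subunits (Kcnmb3) and 1 of 4 γ subunits (Lrrc55) were called, where 7.75% of all genes were. The γ subunit genes Lrrc38 and Lrrc52 had mean signals of 6.30 and 6.55 and are not shown to lie above background. Kcnmb3 read 6.81, 6.76, 6.85 and 6.77 with HDACi and 6.75, 6.49, 6.61 and 6.71 with vehicle, a difference of 0.16 (standard error 0.06; unadjusted p = 0.0276 from limma) without overlap. Its mean of 6.72 lies under the background level, and the call was lost without HDACi replicate 1 or 3 or vehicle replicate 2 or 3 (up to 0.0726) and with arrays centred on their medians (0.0549). Lrrc55, a γ subunit that lowers the voltage needed to open BK, read 8.66, 8.70, 8.52 and 9.01 with HDACi and 8.33, 8.45, 8.54 and 8.32 with vehicle. HDACi replicate 4 stood highest and the groups overlapped by 1 array. The difference was 0.31 (standard error 0.10, 95% confidence interval 0.09 to 0.54; unadjusted p = 0.0110 and adjusted p = 0.61 from limma), wider than that of any Kcn gene over all arrays, and 0.22 without HDACi replicate 4 (unadjusted p = 0.0156 from limma). The small-conductance gene Kcnn3 differed by -0.10, Kcnn4, the intermediate-conductance channel of microglia and other immune cells, by 0.06, and the sodium-activated Kcnt1 and Kcnt2 by 0.02 and 0.03.

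Kcne genes encode single-pass subunits that modulate Kv7 and other Kv channels. Kcne5 was lower, at 8.80, 9.04, 8.89 and 8.90 with HDACi and 9.34, 9.07, 8.99 and 9.07 with vehicle. HDACi replicate 2 overlapped vehicle replicate 3, and vehicle replicate 1 stood highest. The difference was -0.21 (standard error 0.08; unadjusted p = 0.0285 from limma, exact permutation p = 0.0571), and the call was lost without HDACi replicate 1, 3 or 4 or vehicle replicate 1 (up to 0.0795, with a difference of -0.14 without vehicle replicate 1) and without moderation of the variances (0.0623). Kcne1 (-0.15) and Kcne3 (-0.14) were not called and had mean signals of 6.37 and 5.96, not shown to lie above background. Of 16 accessory genes 13 lay below 0 (81.2%, against 57.9% of all genes), with a median of -0.03. With 16 genes this share is a description only. Kcne4 (-0.004), Kcnmb1 (-0.002) and Kcnmb4 (-0.009), counted as below 0, hardly differed, and Kcne1, Kcne3 and Kcnmb3 are not shown to lie above background.

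Partner genes outside the Kcn symbols formed a list of 32, of which 27 were measured. Of these, 1 was lower (Snx27) and 1 higher (Lrrc55) at an unadjusted p under 0.05, where 4.96% of all genes were lower and 2.79% higher. Of the 27, 20 lay below 0, where 57.9% of all genes did, and the median was -0.02, against -0.01 over all genes. With 27 genes these values are a description only. Rest, the repressor of neuronal genes that binds near many potassium channel genes, averaged 8.27 ± 0.11 with HDACi and 8.26 ± 0.14 with vehicle (SD, n = 4 each). The related HCN pacemaker channels Hcn2, Hcn3 and Hcn4 differed by 0.04, -0.07 and -0.05, and none was called.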

How the data were processed

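RNA of dorsal ipsilateral lumbar cord was hybridized to Affymetrix Rat Gene 1.0 ST arrays, with 4 biological replicates of HDACi and 4 of vehicle as named in the sample titles. The deposited values are log2 signals, which the authors made by RMA in the package oligo (background correction, quantile normalization, 1 summary per probe set). No version was named in the labels or methods. Of 29214 probe sets, 15310 had 1 platform symbol, 323 several and 13581 were not listed. Symbols were updated by Entrez number through RefSeq (GRCr8), which held all 83 member genes; promoters came from the same source.

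The 14506 genes (several probe sets averaged) were fitted with lmFit and eBayes of limma 3.58.1 (R 4.3.3), without filter, covariate or block, two-sided, with Benjamini-Hochberg adjustment over all genes. Residual degrees of freedom were 6 and the prior was worth 3.36. The number of arrays limits the precision, and the median SD within groups was 0.09. Exact permutation tests ran over all 70 assignments. On simulated data of 14506 genes, 74% of 50 genes changed by 0.2 and 100% of 50 changed by 0.5 had an unadjusted p under 0.05, as did 5.35% of unchanged genes. The simulated noise was normal and independent for each gene and array, so deviations that genes of an array share were left out. No change under 0.2 was simulated, and shares in the real data may differ.

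Genes named are members with an unadjusted p under 0.05 or groups that did not overlap, the 5 highest and 5 lowest in signal, the widest difference of each subfamily, members whose probe sets differ in sign by over 0.1 on both sides (none did), and members described in dorsal horn, glia or sensory neurons. Some genes of the last group are not reported here. Partner genes are named where called or where they pair with a named member. Other genes are named as neighbours, as subfamily extremes or beside a called relative. The members and lists were chosen with earlier results of these data known.

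Alternatives were the brightest probe set per gene, trend and robust eBayes, no moderation, filters at the 25th percentile and the median of signal, further quantile normalization, median centring, array weights, the replicate number as a block, probe sets in place of genes and each array left out. The means of the motor neuron and leptomeningeal lists as covariates were added after the data were seen.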

Additional observations from a re-analysis of the deposited data

Results flagged for a closer look

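In 6 of 78 groups of 4 arrays examined, 1 array lay apart from the other 3 by Dixon's test at the 95% level. Chance gives about 1 in 20. Kcnj13, an inward rectifier known from choroid plexus and other epithelia, read 7.72 on HDACi replicate 2 and 6.10 to 6.16 on the other HDACi arrays. The same array had the highest mean of the leptomeningeal fibroblast list (9.89, where the other HDACi arrays had 8.62 to 9.07). Vehicle arrays had list means of 8.67 to 9.55 and Kcnj13 values of 6.35 to 6.88. Vehicle replicate 2, at 9.55 on the list, read 6.45 for Kcnj13. The part of those cells in the value was not tested. Without HDACi replicate 2 the Kcnj13 difference was -0.39 (unadjusted p = 0.00851 from limma), against 0.00 with it. Kcna1 read 11.94 on HDACi replicate 4 and 11.995 to 12.003 on the other HDACi arrays. With vehicle, Kcnd2 read 11.45 on replicate 4 (others 11.40), Kcnh3 7.25 on replicate 2 (others 7.45 to 7.47), Kcnj10 11.87 on replicate 1 (others 11.74 to 11.76) and Kcnk2 8.96 on replicate 1 (others 9.20 to 9.23).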

How the results depend on the processing

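The count of lower genes (7) ran from 4 to 8 and that of higher genes (4) from 1 to 6 when arrays were left out in turn. The lows were 4 lower and 2 higher without HDACi replicate 4, and 1 higher (Kcnd3) without vehicle replicate 3. In the alternatives that kept all arrays, the counts stayed within 1.5 times, at 5 to 9 lower and 3 to 5 higher. The median difference (-0.01) ran from -0.043 without HDACi replicate 1 to 0.013 without HDACi replicate 2. No called gene changed direction. Kcnj11, Kcnk4, Kcnab1 and Kcnd3 kept an unadjusted p under 0.05 in limma in every alternative apart from the motor neuron list as covariate, where only Kcnj11 did: of the 5 lower and 3 higher genes then, 1 was among the 11. With the leptomeningeal list as covariate all 11 genes kept their calls. With the replicate number as a block, 5 were lower and 3 higher. No steady pairing by number was seen: same-numbered arrays deviated from their group means with correlations of -0.27, 0.36, 0.04 and 0.06. So few values cannot exclude pairing. Of 479 values of the 26 named genes that were not called, 29 had the opposite sign to the main value and 2, those of Kcnj14 and Kcnq3 under the motor neuron covariate, moved by over 1 SD. Differences of about 0.1, such as those of Kcna2 and Kcnd2, are close to the median SD within groups of 0.09, so genes without a call may still have differed.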

Other observations

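The probe set shared by Kcnk16 and Kcnk5 was outside the family because it carries both symbols. It read 7.51 ± 0.03 with HDACi and 7.59 ± 0.07 with vehicle (SD, n = 4 each).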
